A study of Mus musculus with 15 samples.

Results

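The genes described here are 8 transcription factors that define and maintain the identity of the intestinal epithelium, Cdx1, Cdx2, Hnf4a, Hnf4g, Gata4, Gata6, Isx and Creb3l3. They were found by gene symbol among the 78298 genes of the count tables, and all 8 were listed. The libraries were made from poly-A RNA of small intestinal organoids, spherical or budding epithelial cultures grown from crypts of adult female C57BL/6J mice. The organoids formed 5 conditions with 3 libraries each, described as biological triplicates. Every line had been transduced with lentivirus and selected with puromycin. Halo-NLS, the control, carried V5-Halo-NLS behind the ubiquitous L30 promoter (L30prom), followed by IRES_Puro. The SOX9-Halo line carried Sox9-Halo-V5 and the SOX9-mEGFP line Sox9-mEGFP-V5, each behind the same promoter and selection cassette. Both SOX9 lines were profiled as budding organoids (SOX9-Halo_budding and SOX9-mEGFP_budding) and, after longer culture, as round spheroids (SOX9-Halo_spheroid and SOX9-mEGFP_spheroid). The spheroids had received a second transgene behind L30prom, H2B-mEGFP with IRES_Zeo in the SOX9-Halo line and H2B-mScarletI with IRES_Neo in the SOX9-mEGFP line. Each construct was represented by 1 stable organoid line, initially polyclonal for SOX9-Halo, and organoids of several wells were pooled per library. Spheroid morphology, time in culture and the second transgene therefore cannot be told apart. Untransduced organoids were not analysed here.

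As background, CDX1 and CDX2 are homeodomain factors of the caudal family. CDX2 specifies the intestine from the hindgut and keeps it intestinal in the adult. HNF4A and its paralog HNF4G are nuclear receptors that drive the enterocyte program of the villus, including lipid handling and the brush border. GATA4 and GATA6 are zinc finger factors; GATA4 marks the proximal small intestine and restrains ileal genes there, whereas GATA6 is present along its length. ISX is a homeodomain factor that limits vitamin A production from carotenoids, and CREB3L3 is a membrane-bound bZIP factor of lipid metabolism that is released from the endoplasmic reticulum. SOX9, the overexpressed factor, is normally a factor of crypt base and Paneth cells.

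Promoter sequences were matched by symbol for 4 of the 8 genes, with 6 start sites in all. The 250 bases before the start are printed for 3 genes that fell together in the spheroids, so that their start regions can be compared. They are RefSeq sequences on GRCm38.p6, which is another build than that of the count tables. Cdx2 lies on the minus strand at chr5:147307250-147307499. Hnf4a has an upstream start at chr2:163506607-163506856 and a downstream start at chr2:163546905-163547154, both on the plus strand. Creb3l3 has an upstream start at chr10:81098873-81099122 and a downstream start at chr10:81092592-81092841, both on the minus strand. Capitals mark the letters of any motif searched.
Cdx2: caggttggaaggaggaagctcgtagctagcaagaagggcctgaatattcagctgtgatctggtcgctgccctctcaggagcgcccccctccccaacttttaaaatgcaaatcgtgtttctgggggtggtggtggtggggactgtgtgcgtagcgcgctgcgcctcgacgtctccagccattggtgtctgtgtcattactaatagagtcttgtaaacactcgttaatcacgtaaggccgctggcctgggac
Hnf4a upstream start: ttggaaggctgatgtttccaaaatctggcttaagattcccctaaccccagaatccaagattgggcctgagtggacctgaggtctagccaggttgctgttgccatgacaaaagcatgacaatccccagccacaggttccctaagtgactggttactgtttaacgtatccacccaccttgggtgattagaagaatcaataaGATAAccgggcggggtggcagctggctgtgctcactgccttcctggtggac
Hnf4a downstream start: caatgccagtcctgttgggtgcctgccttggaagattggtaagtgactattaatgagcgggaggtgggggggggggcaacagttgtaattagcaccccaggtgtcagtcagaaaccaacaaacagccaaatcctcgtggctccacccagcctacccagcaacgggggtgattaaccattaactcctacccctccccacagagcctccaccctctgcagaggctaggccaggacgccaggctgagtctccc
Creb3l3 upstream start: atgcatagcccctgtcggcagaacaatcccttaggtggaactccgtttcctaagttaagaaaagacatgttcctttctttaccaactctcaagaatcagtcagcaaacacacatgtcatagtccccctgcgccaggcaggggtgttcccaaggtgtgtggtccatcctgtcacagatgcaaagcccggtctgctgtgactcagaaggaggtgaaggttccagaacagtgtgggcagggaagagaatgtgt
Creb3l3 downstream start: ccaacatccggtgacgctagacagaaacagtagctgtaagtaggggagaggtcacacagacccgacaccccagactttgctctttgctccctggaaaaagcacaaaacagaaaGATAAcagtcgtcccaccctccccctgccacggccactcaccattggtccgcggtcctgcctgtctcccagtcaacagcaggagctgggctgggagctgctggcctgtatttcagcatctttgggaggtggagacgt

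Both strands were searched for short letter strings of factors from these families. The CDX letters TTTATG, the HNF4 letters CAAAGTCC and the SOX letters ACAATG were in none of these windows. Among 32851 promoters of this length, TTTATG was in 10.8%, CAAAGTCC in 1.20% and ACAATG in 10.7%. The GATA letters GATAA, held by 22.6% of all promoters, were found at -51 to -47 of the upstream Hnf4a start and at -137 to -133 of the downstream Creb3l3 start. The count tables give 1 value per gene and do not separate the start sites. Isx was also matched and held none of the strings, and Cdx1, Hnf4g, Gata4 and Gata6 were not matched.

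The libraries held 28062722 to 40559766 reads on genes, with a median of 33491297. Levels are given as CPM, counts scaled to a common library size with edgeR's TMM factors. A gene was called a differentially expressed gene (DEG) at an adjusted p of at most 0.01, a log2 fold change of at least 1 in size and a mean normalised count of at least 10 in edgeR's quasi-likelihood test over 17560 genes. The error of a fold change is its standard error, and replicate values are n = 3 throughout. Sox9, the gene of the transgene, was at 15.3, 22.9 and 9.10 CPM in Halo-NLS. It was at 339, 330 and 193 CPM in SOX9-mEGFP_budding and at 39.8, 314 and 204 CPM in SOX9-Halo_budding. SOX9-Halo_budding replicate 1 thus stood well below the other two libraries of its condition, though above every control library. Without it, 0 of the 7 tested genes were DEGs against Halo-NLS by edgeR and 6 against SOX9-Halo_spheroid, the same counts as with it. In the spheroids Sox9 reached 260, 504 and 705 CPM in SOX9-mEGFP_spheroid and 314, 442 and 441 CPM in SOX9-Halo_spheroid. The counts do not separate transgenic from endogenous Sox9.

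All libraries carried the RNA of an epithelium, and the markers of other tissues were near 0. The 6 epithelial markers (Epcam, Cdh1, Vil1, Krt8, Krt18, Krt19) summed to 5102 to 11526 CPM per library. Within the SOX9-Halo line, spheroids against budding organoids, 2 of the 6 were downregulated (14.7% of all genes) and 1 was upregulated. Within the SOX9-mEGFP line 0 were downregulated and 1 was upregulated. The summed markers of mesenchyme, immune cells and endothelium did not exceed 8.08 CPM in any library. The 6 enterocyte markers (Alpi, Sis, Apoa4, Fabp1, Slc5a1, Krt20) summed to 5379 to 10495 CPM in Halo-NLS, 1622 to 7791 in SOX9-mEGFP_budding and 3708 to 7791 in SOX9-Halo_budding. In the spheroids they summed to 210 to 532 CPM in the SOX9-mEGFP line and to 3.75 to 8.10 CPM in the SOX9-Halo line. No enterocyte marker was at 0 throughout a condition. In bulk libraries, fewer cells of a type and less RNA per cell cannot be told apart, so each fall below may be either.

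Of the 8 genes, 7 could be tested, since Isx had no read in any library. In budding organoids none of the 7 was a DEG against Halo-NLS in either line. The background of DEGs there was 2.76% of all genes in SOX9-mEGFP_budding and 3.75% in SOX9-Halo_budding. At an unadjusted p under 0.05 edgeR gave 3 of the 7 in each comparison, and DESeq2 called 0 in SOX9-mEGFP_budding and 1, Cdx1, in SOX9-Halo_budding. Shares of all genes by these criteria are not given, here or for the gene lists below. Such counts therefore stand without a background. The 3 libraries of each group did not overlap for 4 of the 7 genes in SOX9-mEGFP_budding (32.5% of all genes) and for 2 in SOX9-Halo_budding (29.7%). The median log2 fold change of the tested genes was -0.57 in both lines, beside 0.03 and 0.01 over all genes. The lines did not separate from each other at this stage, with 0 of 7 DEGs by edgeR and DESeq2, none at an unadjusted p under 0.05, and a background of 0.456%. Their libraries did not overlap for 1 gene, Cdx1, where 12% of all genes did not.

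In the spheroids the picture was different. All 7 tested genes were downregulated in SOX9-mEGFP_spheroid against Halo-NLS, where 12.1% of all genes were downregulated DEGs, with a median log2 fold change of -2.51. In SOX9-Halo_spheroid 6 of 7 were downregulated against a background of 15.3%, with a median of -7.35, and Gata4 was not called. Within the lines, spheroids against budding organoids, 5 of 7 were downregulated in the SOX9-mEGFP line (background 7.88%) and 6 of 7 in the SOX9-Halo line (background 14.7%). The spheroids of the SOX9-Halo line were below those of the SOX9-mEGFP line as DEGs for 6 of 7 genes (background 9.58%). Every spheroid library lay below every Halo-NLS library for all 7 genes in both lines, against 27% of all genes in SOX9-mEGFP_spheroid and 28.4% in SOX9-Halo_spheroid. Spheroids lay wholly below their own budding stage for 7 genes in the SOX9-mEGFP line (22.1% of all genes) and for 6 in the SOX9-Halo line (28.2%), and the SOX9-Halo spheroids wholly below the SOX9-mEGFP spheroids for 6 (28%). None of the 7 was upregulated in any of these comparisons. The comparisons share control or budding libraries and are not independent of each other.

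The budding-to-spheroid change itself differed between the lines, tested as an interaction term, for 6 of the 7 genes, where 5.58% of all genes were called in that direction. Each of the 6 fell further in the SOX9-Halo line. The study placed SOX9-Halo_spheroid after SOX9-mEGFP_spheroid in the progress toward spheroid shape, which went with time in culture. Line and this progress therefore cannot be told apart in the interaction. The difference on the log2 scale was -8.77 ± 1.24 for Hnf4g (adjusted p = 0.000194) and -7.34 ± 0.83 for Creb3l3 (adjusted p = 2.58e-05). It was -4.84 ± 0.36 for Cdx2 (adjusted p = 5.33e-07), -3.89 ± 0.72 for Cdx1 (adjusted p = 0.00176) and -3.41 ± 0.34 for Hnf4a (adjusted p = 9.67e-06). For Gata6 it was -2.12 ± 0.40 (adjusted p = 0.00197). Gata4 was the gene that missed the thresholds, with a difference of 0.85 ± 0.36 toward the SOX9-Halo line (adjusted p = 0.154).

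**Figure D1:**
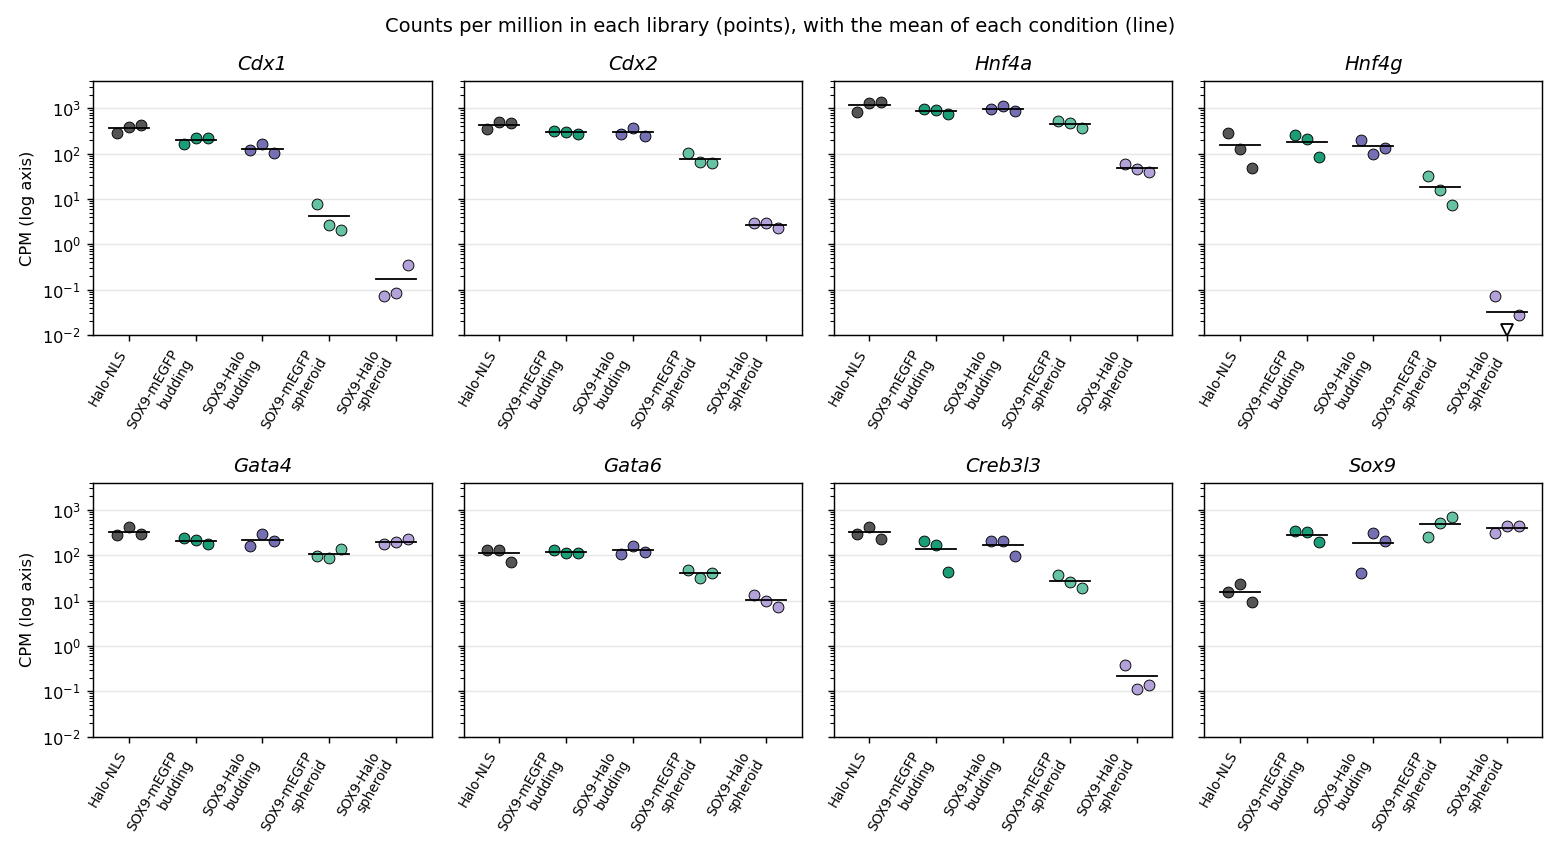
CPM on a log axis for the 7 genes with reads and for Sox9; each point is 1 library, the line is the mean of the 3 libraries of a condition, and the open triangle marks a library with no read. The SOX9-Halo_spheroid points of Cdx1, Hnf4g and Creb3l3 lie below 1 CPM, whereas those of Gata4 lie between 178 and 229 CPM.

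**Figure D2:**
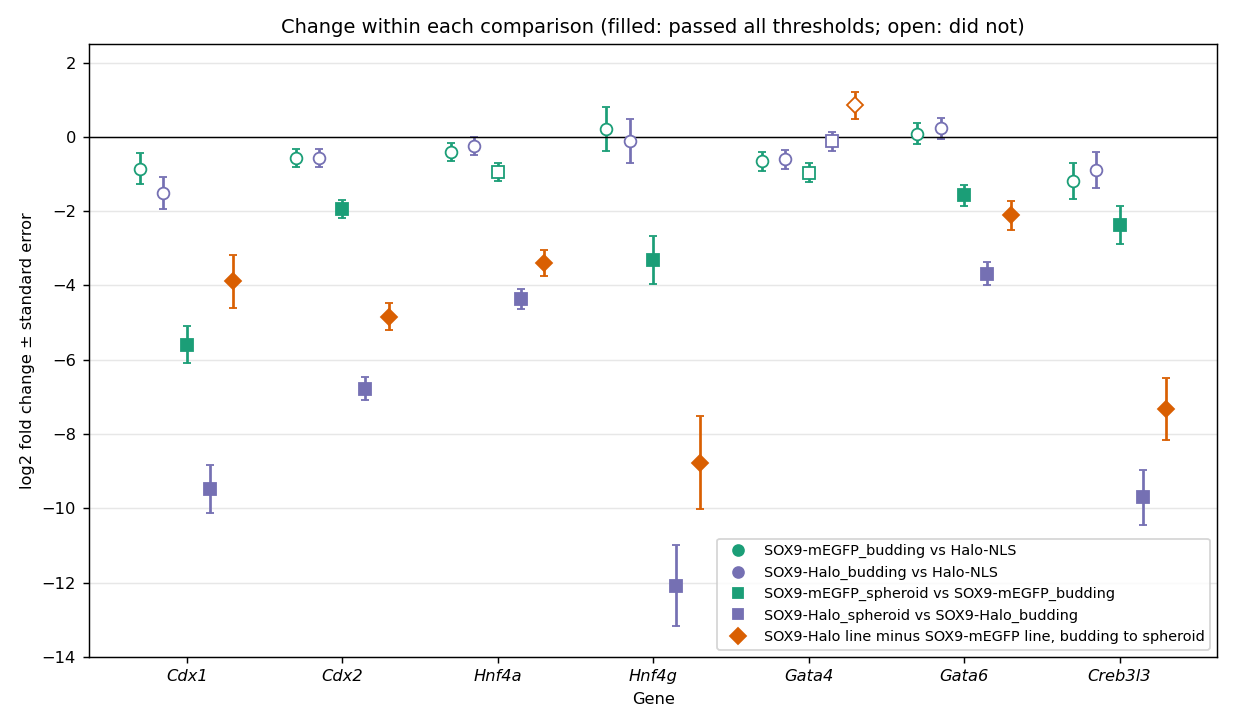
Log2 fold change with its standard error for each gene (x axis) in the budding comparisons with Halo-NLS (circles), the spheroid-to-budding comparisons within a line (squares) and the difference between those within-line changes (diamonds). Filled symbols passed all thresholds; the budding circles are all open, and Gata4 has no filled symbol.

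Cdx1 fell further than Cdx2 from budding organoids to spheroids within each line. It lies on chromosome 18 at 61151934 to 61169314 (GRCm39, minus strand). Its level was 288, 393 and 418 CPM in Halo-NLS, 166, 221 and 216 CPM in SOX9-mEGFP_budding and 119, 160 and 105 CPM in SOX9-Halo_budding. These 3 conditions formed separate ranges in that order, but neither neighbouring pair was a DEG, at log2 fold changes of -0.86 ± 0.42 (adjusted p = 0.155) and -0.65 ± 0.42 (adjusted p = 0.867). The step from Halo-NLS to SOX9-Halo_budding was -1.52 ± 0.42, with an adjusted p of 0.0256 that missed the threshold. SOX9-mEGFP_spheroid held 7.75, 2.66 and 2.04 CPM, 2.06% of the mean of its budding stage (log2 fold change -5.59 ± 0.51, adjusted p = 1.35e-06). SOX9-Halo_spheroid held 0.0706, 0.0846 and 0.349 CPM, from 2, 3 and 13 reads. All 6 spheroid libraries were below all 9 budding and control libraries. The fall from SOX9-Halo_budding was -9.48 ± 0.64 (adjusted p = 3.24e-08); as a ratio of summed counts it was 714-fold, with a 95% counting interval of 452 to 1206. That interval covers counting error only. Without SOX9-Halo_spheroid replicate 3, which held most of the reads, the fall was -10.66; the smallest value with 1 library left out was -9.16. Within the SOX9-mEGFP line the fall was -6.44 without SOX9-mEGFP_spheroid replicate 1.

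Cdx2 fell in the spheroids of both lines. The gene lies on chromosome 5 at 147237615 to 147244091 (minus strand). Halo-NLS held 342, 489 and 484 CPM, SOX9-mEGFP_budding 315, 297 and 272 CPM and SOX9-Halo_budding 272, 374 and 242 CPM. The budding lines overlapped and differed by 0.01 ± 0.24 on the log2 scale. Against Halo-NLS the change was -0.57 ± 0.24 in each line, which did not pass (adjusted p = 0.102 in SOX9-mEGFP_budding and 0.097 in SOX9-Halo_budding). SOX9-mEGFP_spheroid kept 103, 65.3 and 61.6 CPM, 26.1% of the budding mean (log2 fold change -1.94 ± 0.24, adjusted p = 2.66e-05). SOX9-Halo_spheroid kept 2.89, 2.96 and 2.23 CPM, 0.911% of the budding mean (-6.78 ± 0.31, adjusted p = 1.28e-09). The spheroids of the lines did not overlap, at -4.83 ± 0.28 (adjusted p = 2.1e-08).

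The balance within the CDX pair also differed between the conditions. Per kilobase of exon, Cdx1 made up 48.9% ± 0.90 (SD, n = 3) of the summed CDX level in Halo-NLS, with 49.1%, 48.0% and 49.7% in the libraries. The share was 43.8% ± 5.33 in SOX9-mEGFP_budding and 33.2% ± 0.18 in SOX9-Halo_budding, where the libraries gave 33.3%, 33.0% and 33.2%. SOX9-Halo_budding and Halo-NLS did not overlap, and the values within each were nearly alike. In SOX9-mEGFP_spheroid the share was 5.34% ± 2.26. In SOX9-Halo_spheroid it was 2.72%, 3.17% and 15.2%, resting on 2 to 13 Cdx1 reads per library. No test was run on these shares.

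**Figure D3:**
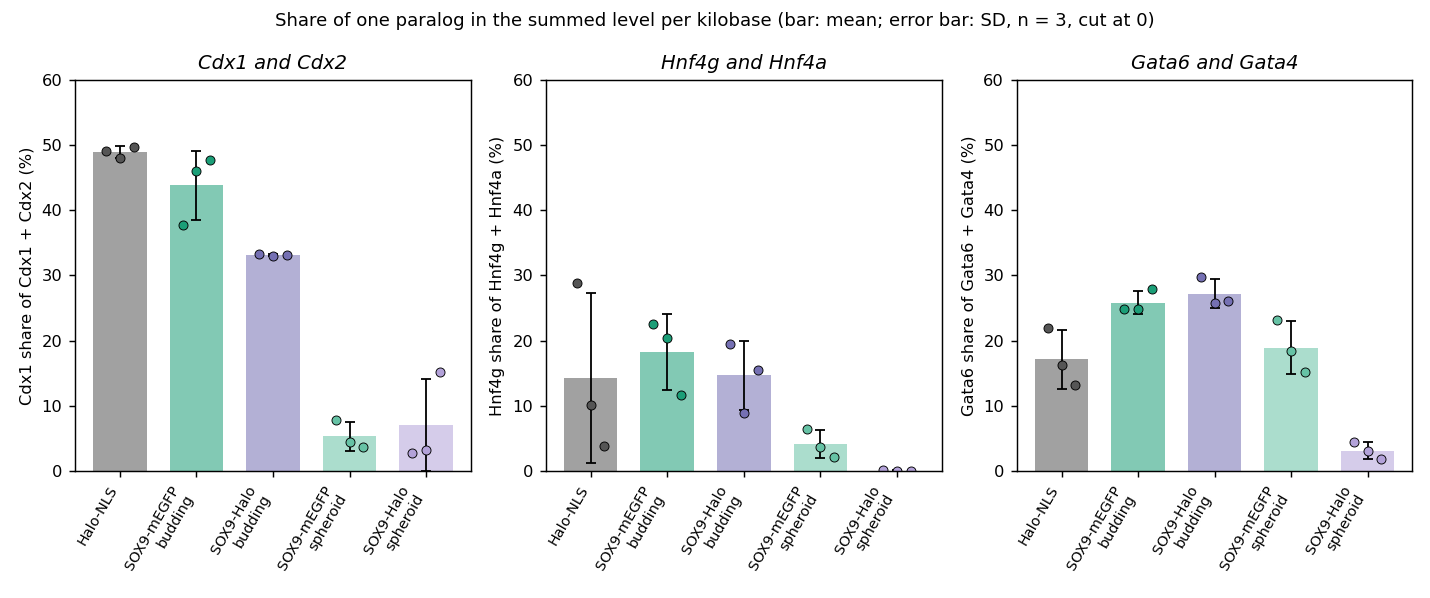
Share of Cdx1, Hnf4g and Gata6 in the summed level per kilobase of each paralog pair, in percent; bars are means, error bars SD (n = 3, drawn no lower than 0) and points single libraries. Cdx1 falls from 48.9% in Halo-NLS to 33.2% in SOX9-Halo_budding with little scatter, whereas the Hnf4g share in Halo-NLS ranges from 3.85% to 28.9%.

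Hnf4a was the most abundant of these genes in the control, and only Gata6 fell less among the 6 that fell within the SOX9-Halo line. It lies on chromosome 2 at 163348728 to 163414830 (plus strand). Halo-NLS held 825, 1309 and 1389 CPM, SOX9-mEGFP_budding 990, 931 and 740 CPM and SOX9-Halo_budding 956, 1149 and 854 CPM, with all 3 conditions overlapping. SOX9-mEGFP_spheroid held 535, 468 and 370 CPM, 51.6% of the budding mean, and all 3 libraries were below the budding ones. That change of -0.96 ± 0.24 had an adjusted p of 0.00688 but missed the 2-fold threshold. SOX9-Halo_spheroid held 59.4, 45.9 and 38.6 CPM, 4.87% of the budding mean (-4.36 ± 0.27, adjusted p = 1.57e-08). Between the spheroids the difference was -3.25 ± 0.26 (adjusted p = 3.88e-07).

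Hnf4g showed the widest scatter between libraries of a condition and the lowest final level. The gene lies on chromosome 3 at 3573084 to 3724860 (plus strand). Halo-NLS held 292, 130 and 48.4 CPM, a 6.03-fold spread, SOX9-mEGFP_budding 252, 208 and 84.7 CPM and SOX9-Halo_budding 202, 98.8 and 136 CPM. The 3 conditions overlapped, and neither budding line passed against Halo-NLS (0.21 ± 0.59, adjusted p = 0.821 for SOX9-mEGFP_budding and -0.10 ± 0.59, adjusted p = 0.913 for SOX9-Halo_budding). SOX9-mEGFP_spheroid held 32.0, 15.6 and 7.41 CPM, below every budding and control library (-3.31 ± 0.65 against its budding stage, adjusted p = 0.00123, and -4.00 without SOX9-mEGFP_spheroid replicate 1). SOX9-Halo_spheroid held 2, 0 and 1 reads. The ratio of counts to SOX9-Halo_budding was 5044, with a counting interval of 1726 to 24460, and to SOX9-mEGFP_spheroid 630, with an interval of 215 to 3057. Per kilobase Hnf4g made up 14.3% ± 13.0 of the HNF4 level in Halo-NLS, 18.2% ± 5.83 in SOX9-mEGFP_budding and 14.7% ± 5.32 in SOX9-Halo_budding. In the spheroids it made up 4.12% ± 2.12 in the SOX9-mEGFP line and 0.0719% ± 0.0684 in the SOX9-Halo line. The HNF4 pool of the SOX9-Halo spheroids was thus almost all Hnf4a. The SOX9-mEGFP_spheroid libraries, at 6.42%, 3.68% and 2.25%, lay below those of SOX9-mEGFP_budding (22.6%, 20.4% and 11.6%). They overlapped Halo-NLS, where replicate 3 was at 3.85%.

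Gata4 stood apart from the other genes in the SOX9-Halo line. Its locus is chromosome 14 from 63436362 to 63509141 (minus strand). Halo-NLS held 283, 427 and 293 CPM, SOX9-mEGFP_budding 246, 213 and 177 CPM and SOX9-Halo_budding 160, 290 and 209 CPM. SOX9-mEGFP_spheroid was lowest, with 98.3, 88.1 and 138 CPM, and did not overlap its budding stage. SOX9-Halo_spheroid held 178, 198 and 229 CPM, inside the range of SOX9-Halo_budding and above all 3 SOX9-mEGFP_spheroid libraries. The within-line change was -0.12 ± 0.25 (adjusted p = 0.73) in the SOX9-Halo line and -0.97 ± 0.25 (adjusted p = 0.00905, under 2-fold) in the SOX9-mEGFP line. SOX9-Halo_spheroid was above SOX9-mEGFP_spheroid by 0.90 ± 0.25 (adjusted p = 0.0174) and below Halo-NLS by 0.73 on the log2 scale (-0.73 ± 0.25, adjusted p = 0.0265), neither a DEG. Only the fall from Halo-NLS to SOX9-mEGFP_spheroid was called among the comparisons with Halo-NLS and within the lines (-1.63 ± 0.26, adjusted p = 0.00014).

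Gata6 behaved unlike its paralog in the SOX9-Halo line. It lies on chromosome 18 at 11051565 to 11086995 (plus strand) and shares 12.5% of its exonic bases with the antisense gene Gata6os, which reads of this unstranded protocol cannot resolve; Gata6os itself had 6 to 887 reads per library. Halo-NLS held 130, 134 and 71.9 CPM, SOX9-mEGFP_budding 132, 114 and 111 CPM and SOX9-Halo_budding 109, 164 and 119 CPM, all overlapping. SOX9-mEGFP_spheroid held 48.2, 32.2 and 39.9 CPM (-1.57 ± 0.28 against its budding stage, adjusted p = 6e-04). SOX9-Halo_spheroid held 13.5, 9.98 and 7.06 CPM (-3.68 ± 0.31, adjusted p = 2.18e-07). The spheroid libraries lay below all others, with the lines apart by -1.98 ± 0.29 (adjusted p = 0.000118). Per kilobase Gata6 was 27.2% ± 2.19 of the GATA4 and GATA6 sum in SOX9-Halo_budding and 3.12% ± 1.31 in SOX9-Halo_spheroid, beside 25.9% ± 1.80 and 18.9% ± 4.07 at the same stages of the SOX9-mEGFP line. Chromosome 18, which holds Gata6 and Cdx1, was itself shifted: the median of its 465 tested genes was 0.81 higher in SOX9-mEGFP_spheroid than in Halo-NLS and 0.60 lower in SOX9-Halo_spheroid than in SOX9-mEGFP_spheroid on the log2 scale (-0.60). Its median changed by 0.43 within the SOX9-mEGFP line and by -0.08 within the SOX9-Halo line. Against Halo-NLS it was 0.30 higher in SOX9-mEGFP_budding and 0.36 higher in SOX9-Halo_budding. The part of this shift in the values of Gata6 and Cdx1 was not tested.

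Creb3l3 fell to near absence in SOX9-Halo_spheroid. The gene lies on chromosome 10 at 80920141 to 80934708 (minus strand). Halo-NLS held 295, 432 and 233 CPM, SOX9-mEGFP_budding 204, 171 and 42.8 CPM and SOX9-Halo_budding 208, 211 and 97.4 CPM. Both budding conditions lay below the 3 control libraries, but neither change was a DEG, at -1.20 ± 0.49 (adjusted p = 0.0977) and -0.89 ± 0.48 (adjusted p = 0.186). SOX9-mEGFP_spheroid held 36.0, 25.9 and 18.8 CPM, 19.3% of the budding mean (-2.37 ± 0.50, adjusted p = 0.00222). This call was lost without SOX9-mEGFP_budding replicate 1 (adjusted p = 0.0122) and without SOX9-mEGFP_spheroid replicate 2 (adjusted p = 0.0123) or replicate 3 (adjusted p = 0.0148). SOX9-Halo_spheroid held 0.388, 0.113 and 0.134 CPM, from 11, 4 and 5 reads (-9.71 ± 0.74 against its budding stage, adjusted p = 9.91e-08, and -10.40 without SOX9-Halo_spheroid replicate 1).

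Within a condition, several of these genes and some marker sums were lowest in the same library. Creb3l3 was lowest in replicate 3 in 4 of the 5 conditions, and so was the summed level of the 6 enterocyte markers, in the same 4. In SOX9-mEGFP_budding the enterocyte sum was 7791, 5746 and 1622 CPM, beside 204, 171 and 42.8 CPM of Creb3l3. Hnf4g was lowest in replicate 3 in 3 of those 4, the exception being SOX9-Halo_budding. Cdx2 and Hnf4a were lowest in replicate 3 in 4 conditions, all but Halo-NLS, where Hnf4a was highest in that replicate. The summed enteroendocrine markers were also lowest in replicate 3 in 4 conditions. The summed stem cell markers went the other way and were highest in replicate 3 in every condition. In SOX9-mEGFP_budding that sum was 176, 265 and 1049 CPM. Whether the share of any cell type set these differences between libraries was not tested.

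Isx was listed with 0 reads in all 15 libraries. Its locus is chromosome 8 from 75599756 to 75620134 (plus strand), and its exons overlap no other annotated gene. A count of 0 allows a level of up to 0.117 CPM in the library with the smallest scaled size, Halo-NLS replicate 1, on 3 counts, and of up to 0.00596 CPM over the summed scaled sizes of all libraries. Whether the counting or the annotation contributed to the 0 was not tested. The genes ISX is known to repress were measured. Bco1, which cleaves beta-carotene, was at 47.4, 39.9 and 24.1 CPM in Halo-NLS and fell within the SOX9-mEGFP line (-3.34 ± 0.55, adjusted p = 0.000287) and the SOX9-Halo line (-5.55 ± 0.63, adjusted p = 4.38e-06). Scarb1, the scavenger receptor that takes up carotenoids and lipoprotein cholesterol, changed by -1.17 ± 0.33 (adjusted p = 0.0145) and -0.84 ± 0.33 (adjusted p = 0.0526), which did not pass in edgeR. DESeq2 called both genes within the SOX9-mEGFP line and 1 of the 2 within the SOX9-Halo line.

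Ranked per kilobase of exon, Hnf4a and Cdx2 kept the top of the order in every condition but SOX9-Halo_spheroid. Hnf4a was the highest in Halo-NLS, at 233 ± 60.5 CPM per kilobase (SD), in SOX9-mEGFP_budding at 176 ± 25.9, in SOX9-Halo_budding at 196 ± 29.8 and in SOX9-mEGFP_spheroid at 90.8 ± 16.4. Cdx2 was next in those 4 conditions, at 193 ± 36.6, 130 ± 9.57, 130 ± 30.4 and 33.8 ± 10.2. In Halo-NLS Cdx2 and Cdx1 (185 ± 34.8) lay within their spread. In SOX9-mEGFP_spheroid Gata4 (19.0 ± 4.66) came after Cdx2, and Cdx1 was the lowest of the genes with reads at 2.09 ± 1.58. In SOX9-Halo_spheroid Gata4 led with 35.4 ± 4.51 CPM per kilobase, ahead of Hnf4a with 9.53 ± 2.10 and of Cdx2 and Gata6, which lay within their spread at 1.19 ± 0.18 and 1.10 ± 0.35. Cdx1, Creb3l3 and Hnf4g followed below 0.1 CPM per kilobase.

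Across conditions, the order of the levels was Halo-NLS, the budding lines, SOX9-mEGFP_spheroid and SOX9-Halo_spheroid for Cdx1, Cdx2, Hnf4a and Creb3l3. The neighbours that differed beyond the thresholds were the upper of the spheroids against the lower of the budding lines, and the spheroids against each other, for Cdx1, Cdx2 and Creb3l3. For Hnf4a only the spheroids differed from each other beyond the thresholds among neighbours. In Hnf4g and Gata6 a budding line stood above Halo-NLS, and these 3 conditions could not be ordered; the step down to SOX9-mEGFP_spheroid passed for Hnf4g from SOX9-Halo_budding (-2.99 ± 0.64, adjusted p = 0.00214, in a comparison with 8.32% of all genes downregulated) and for Gata6 from Halo-NLS (-1.48 ± 0.28, adjusted p = 0.000639). For Gata4 no neighbours in the order of means differed beyond the thresholds, and SOX9-Halo_spheroid took the place between SOX9-mEGFP_budding (-0.07 ± 0.25, adjusted p = 0.849, where 14.8% of all genes were downregulated) and SOX9-mEGFP_spheroid.

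Over the 15 libraries the log2 CPM of Gata4 tracked the other 6 genes with Pearson r of 0.199 to 0.477, whereas every other pair had r of 0.931 to 0.995. These values are descriptions, since the libraries fall into conditions that share lines and depth. Among 11053 genes with a mean normalised count of at least 100, those most like Cdx2 were Hnf4a (r = 0.995), Pycard and Smim24, and those most like Hnf4a were Myo1a (r = 0.995), a brush border myosin, then Cdx2 and Rap1gap2. Lyz1, the Paneth cell lysozyme, was most like Cdx1 (r = 0.996), followed by Mxra7 and Cldn15. Genes most like Hnf4g included Abcg2 (r = 0.996) and Slc3a1, Creb3l3 was most like Ces2c (r = 0.996), Pklr and Cyp4f14, and Gata6 was most like Dnm1 (r = 0.987), Cyp2j9 and Lrp4. The genes most like Gata4 were Tmem201 (r = 0.944), Polrmt and Entpd7.

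Known CDX targets differed sharply between the lines. Of 9 listed targets, 3 were downregulated and 1 upregulated within the SOX9-mEGFP line (median log2 fold change -1.02), and 8 were downregulated within the SOX9-Halo line (median -9.60). Over all genes the medians were -0.04 and -0.08, and 7.88% and 14.7% of all genes were downregulated. Cdh17, the liver-intestine cadherin, was at 818, 669 and 557 CPM in SOX9-mEGFP_spheroid, where Cdx2 was at 61.6 to 103 CPM, and at 0.565, 0.479 and 1.69 CPM in SOX9-Halo_spheroid. Its change was -0.63 ± 0.39 (adjusted p = 0.273) within the SOX9-mEGFP line and -9.90 ± 0.58 (adjusted p = 7.76e-09) within the SOX9-Halo line, and the interaction was -9.27 ± 0.65 (adjusted p = 3.82e-07). Sis, the brush border sucrase-isomaltase, was downregulated in both (-4.10 ± 0.86, adjusted p = 0.00196, and -10.49 ± 1.15, adjusted p = 3.14e-06). Cldn2, a pore-forming claudin, was upregulated within the SOX9-mEGFP line (1.95 ± 0.16, adjusted p = 4.14e-07) and was the listed target that did not fall in the SOX9-Halo line (0.60 ± 0.15, adjusted p = 0.00453, under 2-fold).

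HNF4 targets were downregulated in both spheroids. Of 8 tested, 5 were downregulated within the SOX9-mEGFP line (median -2.86) and 8 within the SOX9-Halo line (median -10.01), and the interaction passed for all 8. The shares of all genes called lower were 7.88%, 14.7% and, for the interaction, 5.58%. Fabp1, the fatty acid binding protein, was at 2638, 2072 and 460 CPM in SOX9-mEGFP_budding and at 72.6, 38.1 and 7.46 CPM in SOX9-mEGFP_spheroid (-5.45 ± 0.82, adjusted p = 0.00013). In the SOX9-Halo line it went from 3185, 1791 and 1269 CPM to 1.20, 0.676 and 1.90 CPM (-10.68 ± 1.03, adjusted p = 8.55e-07). Mttp, which loads triglyceride onto apolipoprotein B, changed by -2.83 ± 0.48 (adjusted p = 0.000369) and by -7.56 ± 0.60 (adjusted p = 1.31e-07) on the log2 scale. Several of these targets, Fabp1 and Apoa4 among them, are also enterocyte markers.

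Of the 6 listed CREB3L3 targets 3 were tested, and 2 were downregulated within the SOX9-Halo line, where 14.7% of all genes were. Within the SOX9-mEGFP line edgeR called 0, with 1 at an unadjusted p under 0.05, and DESeq2 called 1. The pair that fell was Cidec, a lipid droplet protein (-5.11 ± 0.53, adjusted p = 1.77e-06), and Apoa4, a chylomicron apolipoprotein (-10.42 ± 0.86, adjusted p = 2e-07). Within the SOX9-mEGFP line Cidec changed by 0.19 ± 0.42 (adjusted p = 0.797) and Apoa4 by -1.83 ± 0.58 (adjusted p = 0.0263). Fgf21, a secreted metabolic hormone, was at 2.68, 0.226 and 0.0805 CPM in SOX9-Halo_spheroid and at most 0.348 CPM in every other library, and did not pass in either line.

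Ileal bile acid genes, which GATA4 restrains in the proximal intestine, moved in different directions. Slc10a2, the ileal bile acid uptake transporter, rose from 1.27, 2.72 and 1.55 CPM in SOX9-mEGFP_budding to 25.0, 32.3 and 9.56 CPM in SOX9-mEGFP_spheroid (3.59 ± 0.48, adjusted p = 5.06e-05). In the SOX9-Halo line it fell to 0.0706, 0.0282 and 0.0805 CPM (-4.46 ± 0.66, adjusted p = 5.72e-05), and the interaction was -8.05 ± 0.81 (adjusted p = 8.6e-06). Slc51a, a subunit of the basolateral bile acid exporter, fell in both (-5.13 ± 0.63, adjusted p = 2.16e-05, and -5.45 ± 0.65, adjusted p = 7.54e-06). Of the 4 genes tested, 2 were downregulated and 1 upregulated within the SOX9-mEGFP line, and 3 were downregulated within the SOX9-Halo line. The shares of all genes downregulated there were 7.88% and 14.7%.

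**Figure D4:**
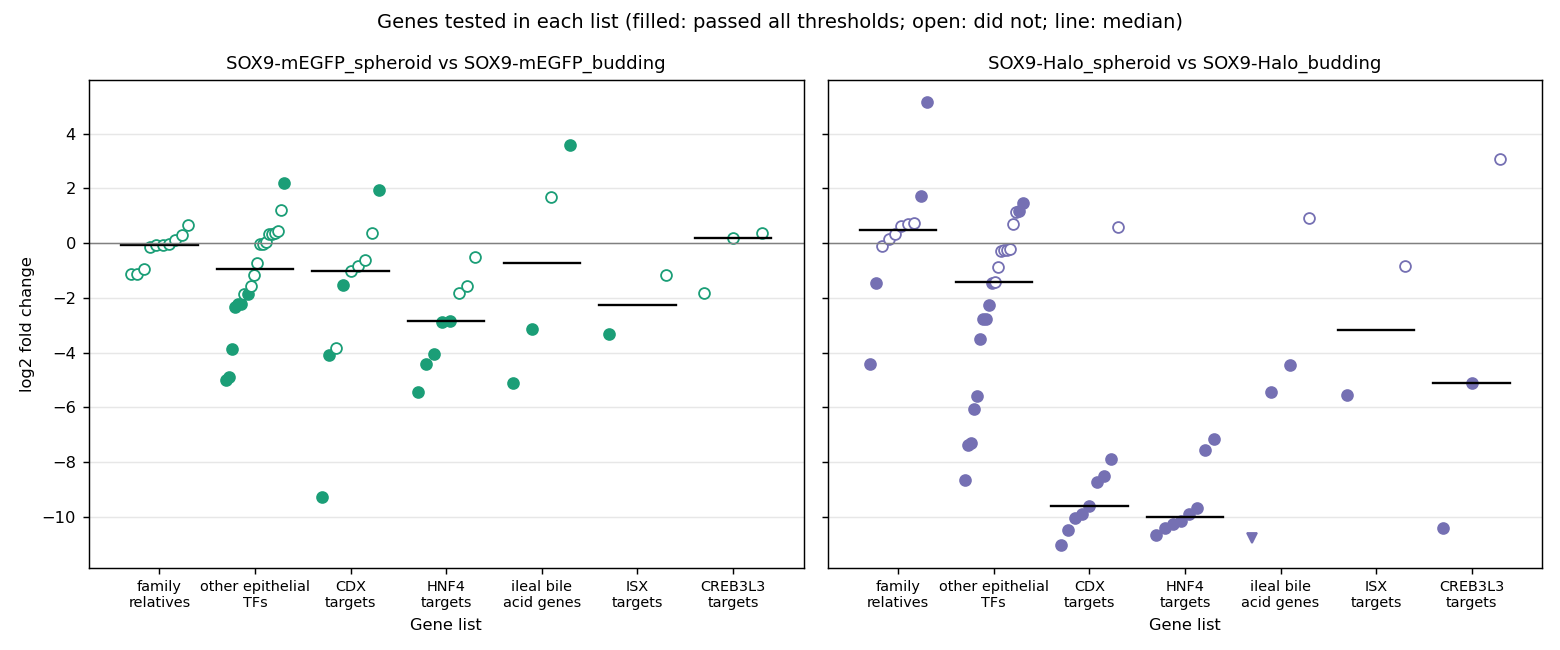
Log2 fold change of spheroids against budding organoids for every tested gene of 7 lists, in the SOX9-mEGFP line (left) and the SOX9-Halo line (right); filled points passed all thresholds and lines are medians. The triangle is Slc51b, which had no read in any SOX9-Halo_spheroid library, so that its fitted value is no measured fold and its list has no median line. Medians of CDX and HNF4 targets lie at -9.60 and -10.01 on the right and at -1.02 and -2.86 on the left.

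The relatives of these factors did not fall as a group. Of 10 tested members of the same families, 0 were called by edgeR within the SOX9-mEGFP line (3 at an unadjusted p under 0.05, and 1 by DESeq2), and 2 were downregulated and 2 upregulated within the SOX9-Halo line (median 0.49). Of all genes, 7.88% were downregulated within the SOX9-mEGFP line and 14.7% within the SOX9-Halo line. The share of all genes upregulated is not given here. The most abundant relatives were the nuclear receptors Rxra and Rxrb and the orphan receptor Nr2f6, and none of these 3 was called within either line. The 4 that passed were named after their values were seen. Creb3l1 and Creb3l4, bZIP relatives of Creb3l3, were downregulated (-4.41 ± 0.56, adjusted p = 1.24e-05, and -1.47 ± 0.23, adjusted p = 0.00012), and Gata5 and Gata2 were upregulated. Gata5, an endodermal GATA factor, was at 13.0, 21.0 and 19.0 CPM in SOX9-Halo_budding and at 49.5, 58.9 and 66.2 CPM in SOX9-Halo_spheroid (1.72 ± 0.25, adjusted p = 5.7e-05). Within the SOX9-mEGFP line it changed by less than its error (-0.14 ± 0.25, adjusted p = 0.754), and the interaction was 1.86 ± 0.35 (adjusted p = 0.00215). Gata2 reached 2.01, 1.86 and 3.33 CPM in SOX9-Halo_spheroid and was at most 0.300 CPM in every other library.

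Other transcription factors of the epithelium moved less evenly. Of 20 tested, 7 were downregulated and 1 upregulated within the SOX9-mEGFP line (median -0.95), and 10 were downregulated and 2 upregulated within the SOX9-Halo line (median -1.43). The background of downregulated genes was 7.88% and 14.7%. Vdr, the vitamin D receptor, fell in both (-5.00 ± 0.38, adjusted p = 2.83e-07, and -3.51 ± 0.35, adjusted p = 1.25e-06). Elf3, an epithelial ETS factor, did not pass in either line (-0.02 ± 0.22, adjusted p = 0.962, and -0.29 ± 0.22, adjusted p = 0.317). Ehf, another epithelial ETS factor, changed by 1.22 ± 0.40 (adjusted p = 0.0344) and 1.14 ± 0.40 (adjusted p = 0.034), which also did not pass.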

How the data were processed

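Per the labels and the study's methods, the authors trimmed reads with cutadapt 4.5, aligned them to mm39 with STAR and made the deposited gene counts with HTSeq 2.0.2 (union mode, unstranded) from libraries of a kit that does not mark strand. Of all entries in the count files, 1.83% to 6.09% fell on no gene and 9.65% to 13.6% on several genes, and these were left out. Tables of the authors' own comparisons (fold changes, p-values) and their normalised counts were not used.

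Counts of all 15 libraries were fitted in one quasi-likelihood model with edgeR 4.0.16 (R 4.3.3), with 1 term per condition, TMM scaling and edgeR's expression filter, and p-values were adjusted by Benjamini-Hochberg over 17560 genes. DESeq2 1.42.0 was an alternative. Levels per kilobase used the summed exon length of GENCODE M39. With 3 libraries per condition, p-values measure the spread between these libraries; per the study's methods the triplicates of a condition were taken within a few passages of each other, and what else separated them is not given in the sources used here. Counting intervals and limits of 0 cover counting error only. The edgeR steps were tested on simulated data. The genes and gene lists were chosen with earlier results of these data known. The genes named were the 8 factors, Sox9, the 3 most abundant genes of each list of factors or targets and the 3 genes most correlated with each factor; others are marked where they appear. A few genes of these lists are not reported here and were left out of their counts and sums. Alternatives were RLE scaling, library sizes alone, no expression filter, DESeq2, a fit of only the libraries compared, the replicate number as a block, a looser threshold and leaving out each library. Same-numbered libraries correlated above 0.1 in all 3 pairs only between SOX9-Halo_budding and SOX9-Halo_spheroid (r = 0.180 to 0.311). Some single pairs correlated more strongly, with r of 0.0465 to 0.697 between Halo-NLS and SOX9-Halo_budding. Between SOX9-mEGFP_budding and SOX9-Halo_budding r was 0.0530 to 0.654. The main fit used no replicate block in any comparison, and the block was an alternative only.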

Additional observations from a re-analysis of the deposited data

Results flagged for a closer look

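The change from budding organoids to spheroids differed between the SOX9-Halo and SOX9-mEGFP lines, by the interaction term of edgeR's quasi-likelihood test, for 6 of the 7 tested factors. The SOX9-Halo change minus the SOX9-mEGFP change was -3.89 on the log2 scale for Cdx1, -4.84 for Cdx2, -3.41 for Hnf4a, -8.77 for Hnf4g, -2.12 for Gata6 and -7.34 for Creb3l3. Hnf4g, Cdx1 and Creb3l3 rest on 3, 18 and 20 reads in all in SOX9-Halo_spheroid, so their size depends on few counts. Leaving out 1 library at a time, the difference ranged from -5.04 (without SOX9-Halo_spheroid replicate 3) to -3.10 (without SOX9-mEGFP_spheroid replicate 1) for Cdx1. It ranged from -9.72 (without SOX9-Halo_spheroid replicate 1) to -8.13 (without SOX9-mEGFP_spheroid replicate 1) for Hnf4g, and reached -8.03 for Creb3l3 without SOX9-Halo_spheroid replicate 1. Each line is 1 organoid line with its own tag and second transgene, and tag, line and passage cannot be told apart.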

How the results depend on the processing

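Of 1694 alternative values for 77 factor-by-comparison changes, 1651 kept their direction and side of the thresholds, 16 fell below them, 7 passed them and 20 changed sign. In budding organoids the count of called factors went from 0 to 1 against Halo-NLS in SOX9-mEGFP_budding with no expression filter (Creb3l3, -1.16), and from 0 to 1 in SOX9-Halo_budding with no filter, with DESeq2 and at an adjusted p of at most 0.05 with no fold threshold (Cdx1; -1.45 and -1.53 in the first pair). Small changes reversed in SOX9-Halo_budding against Halo-NLS: Hnf4a to 0.0444 and Hnf4g to 0.1857 with library sizes alone, and Hnf4g to 0.2499 and 0.1769 with the replicate block over all libraries and over only those compared. The block over all libraries also moved Cdx2 between the budding lines to -0.0047. Fitted on only the libraries compared, the replicate block ended the calls of Hnf4a (-1.39, adjusted p = 0.0106) and Gata6 (-1.49, adjusted p = 0.0106) in SOX9-mEGFP_spheroid against Halo-NLS, where same-numbered libraries did not correlate, and it ended no other call in the comparisons with Halo-NLS or within a line. The cause was not tested. With library sizes alone the median of all genes was 0.27 to 0.31 in the 4 comparisons with Halo-NLS, beside -0.01 to 0.03 with TMM scaling.

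Leaving out 1 library at a time gave ranges that cross 0. Against Halo-NLS, SOX9-mEGFP_budding ranged from -0.214 to 1.0308 for Hnf4g and from -0.1494 to 0.2446 for Gata6, and SOX9-Halo_budding from -0.5324 to 0.7113 and from -0.0121 to 0.383. SOX9-Halo_spheroid ranged from -0.3109 to 0.1311 for Gata4 against SOX9-Halo_budding and from -0.215 to 0.048 against SOX9-mEGFP_budding. Between the budding lines the ranges were -0.1984 to 0.1257 for Cdx2, -0.2037 to 0.2371 for Gata4, -0.059 to 0.2529 for Gata6 and -0.1392 to 0.6873 for Creb3l3. Within the SOX9-mEGFP line, Hnf4a became a DEG without SOX9-mEGFP_budding replicate 3 (-1.12) or SOX9-mEGFP_spheroid replicate 1 (-1.10), and Gata4 without replicate 3 of either stage (-1.14 and -1.22). Of the steps between SOX9-Halo_budding and SOX9-mEGFP_spheroid, Hnf4g missed the threshold without SOX9-mEGFP_spheroid replicate 2 (adjusted p = 0.0131) or 3 (adjusted p = 0.0113).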

Other observations

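Summed per library, the markers of Paneth cells and of goblet cells differed between the spheroids of the lines as well. Paneth cell markers summed to 1119 to 1357 CPM in SOX9-mEGFP_spheroid and to 3.22 to 5.86 CPM in SOX9-Halo_spheroid, beside 659 to 829 CPM in SOX9-Halo_budding. The SOX9-mEGFP_spheroid sum was mostly Mmp7, a matrix metalloproteinase named after its values were seen, at 1327, 1305 and 1107 CPM. Within that line Mmp7 was upregulated (5.26 ± 0.28, adjusted p = 1.53e-08) and the other 4 of the 5 Paneth markers were downregulated, with a median of -6.95 over the list. Goblet cell markers summed to 1916 to 3358 CPM in SOX9-mEGFP_spheroid and to 19.6 to 26.7 CPM in SOX9-Halo_spheroid. Enteroendocrine markers were at 0.454 to 2.27 CPM and 0.197 to 0.429 CPM in the spheroids, beside 197 to 962 CPM over the budding and control libraries. Stem cell markers were closer between the spheroids, at 89.1 to 146 CPM and 97.7 to 149 CPM. Their sums were 176 to 1049 CPM in SOX9-mEGFP_budding, 310 to 560 CPM in SOX9-Halo_budding and 181 to 493 CPM in Halo-NLS. Of the 5 stem cell markers, 2 were downregulated within the SOX9-mEGFP line (7.88% of all genes), with 0 upregulated. Within the SOX9-Halo line 3 were downregulated (14.7%), with 0 upregulated. Of the 3 most abundant stem cell markers, Olfm4 changed by -6.05 within the SOX9-mEGFP line and -8.36 within the SOX9-Halo line. Smoc2 changed by -5.93 and -4.74, and both genes were called in both lines. Axin2 was called in neither (-0.15 and 1.29), so the sums hide unlike changes. Tuft cell sums overlapped, at 1.98 to 2.48 CPM and 1.35 to 2.05 CPM in the spheroids.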
